A study of Mus musculus with 45 samples.

Results

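The C-type lectin receptors described here are 6 transmembrane receptors of myeloid cells, encoded by Clec7a, Clec4e, Clec4d, Clec4n, Clec5a and Clec12a. They were taken by gene symbol from a table of 24421 genes, all 6 were found, and all 6 were among the 11380 genes with enough reads to be tested. Such receptors bind glycans, glycolipids or signals of damaged cells on the surface of microbes and dying cells. CLEC7A (dectin-1), the receptor for fungal beta-glucan, carries an activating motif in its own tail. CLEC4E (mincle), a receptor for mycobacterial and fungal glycolipids, and CLEC4N (dectin-2), a receptor for fungal mannans, signal through the adaptor FcRγ, the product of Fcer1g. CLEC4D (MCL, dectin-3) is found in a complex with CLEC4E. CLEC5A (MDL-1) signals through DAP12, the product of Tyrobp, while CLEC12A, a receptor for uric acid crystals of dead cells, carries an inhibitory motif. The activating receptors use the kinase Syk and the complex of Card9, Bcl10 and Malt1, and in macrophages they are known for raising inflammatory cytokines.

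The 21 libraries came from mouse C57BL/6 macrophages grown from bone marrow in L929-conditioned medium and taken on day 7. There were 7 groups of 3 libraries, in which cells received IFN-γ (100 ng/ml) together with IL-4 (10 ng/ml) for 2 h or 4 h, IFN-γ alone for 2 h or 4 h, IL-4 alone for 2 h or 4 h, or no cytokine. IFN-γ is the main cytokine of classical macrophage activation and IL-4 that of alternative activation, so the comparisons ask how each cytokine, and the pair, act on the same genes. A further 24 libraries of the series, from cells with short hairpin RNAs, are not analysed here. The labels give replicate numbers 1 to 3 but do not say whether a number stands for an animal, a culture or a day, so a p-value here speaks only of the variation among these libraries, part or all of which may be technical.

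Library totals ran between 28920801 and 80028327 reads. The ribosomal RNA precursor Rn45s held 43.2% of the reads in untreated replicate 2 and 15.7% in untreated replicate 3, against 0.151% in untreated replicate 1, and this lowers the deposited CPM (a gene's reads scaled to the library total) of other genes there. Values below are therefore CPM rescaled by median-ratio factors (0.577 to 1.21), called rescaled CPM. The lowest count behind any value of the 6 receptor genes was 322 reads (Clec4n, untreated replicate 2) and the highest was 62248 reads (Clec7a, combination at 4 h, replicate 2). A change is a difference of log2(rescaled CPM + 1), given ± its standard error (SE). It was called at a limma adjusted p under 0.05 over all 11380 genes. A level is given as the mean ± SD of 3 libraries. Across groups, libraries that carry 1 replicate number deviated together. Where entering the number as a block changed the call of a receptor gene, that adjusted p is given as the blocked one. It is also given for some calls that single libraries decided. Fits that leave libraries out had no block. Bulk RNA cannot tell fewer cells of a type from less RNA per cell.

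**Figure D1:**
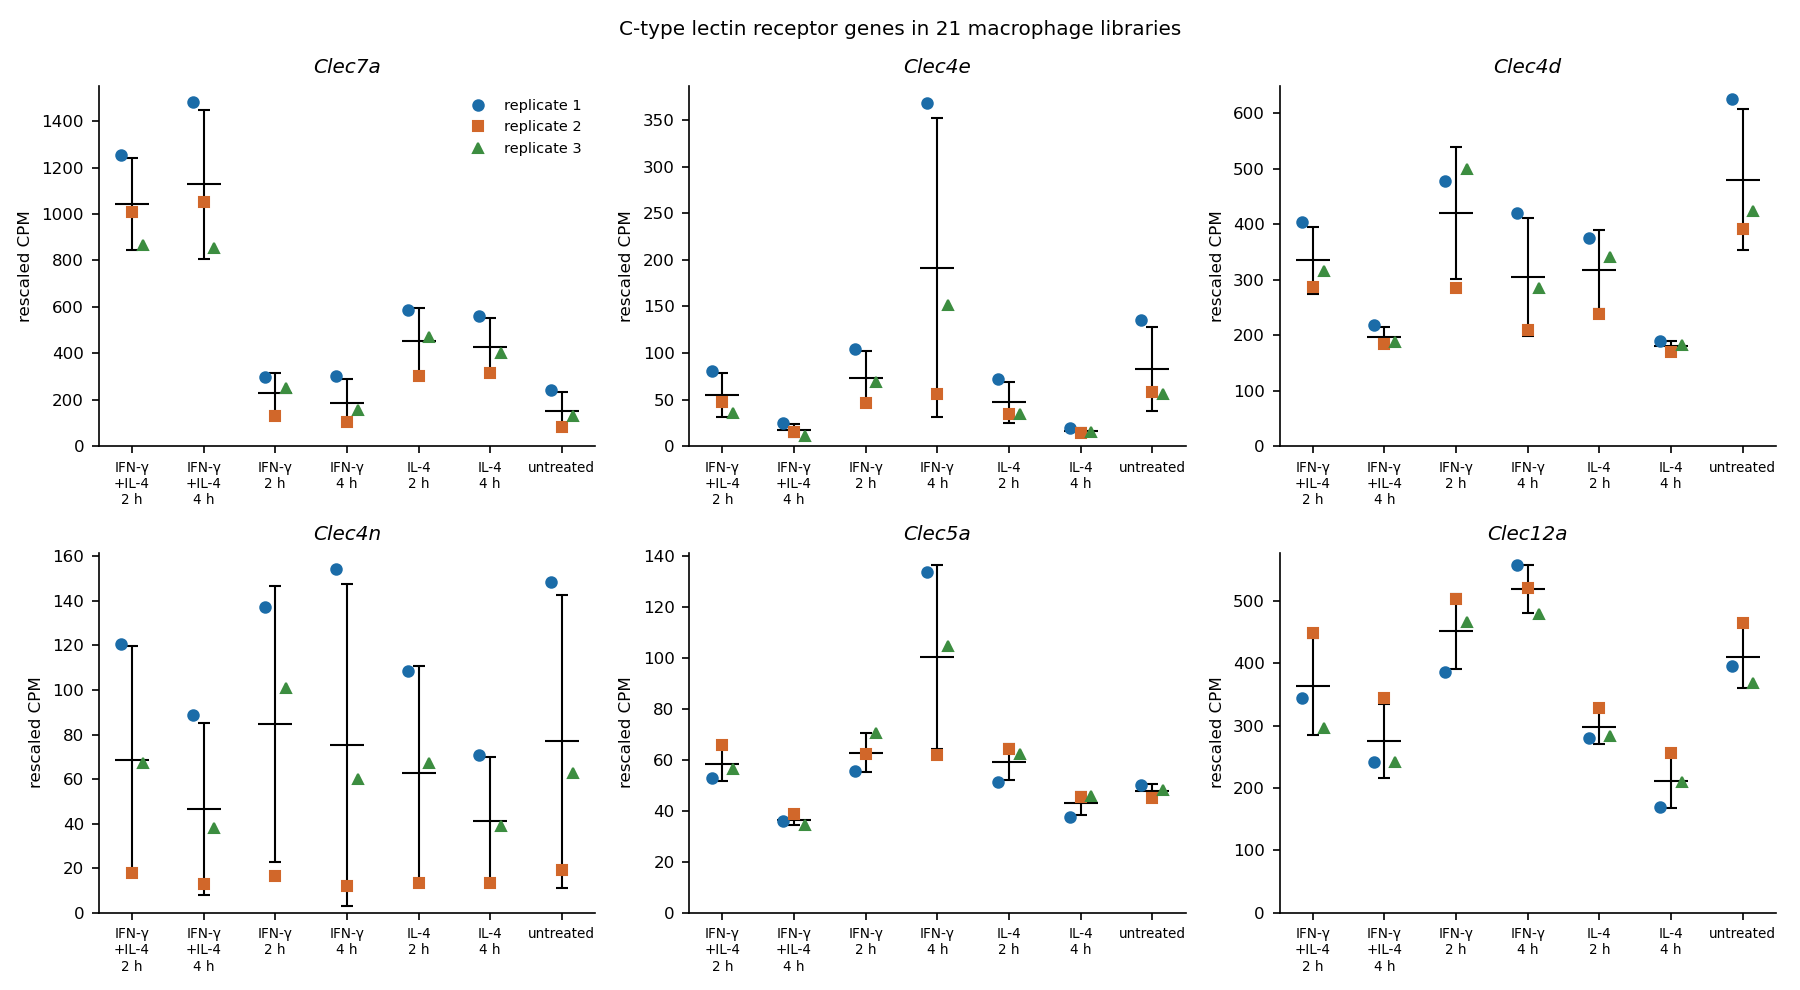
Rescaled CPM (vertical axis, linear, from 0) of the 6 receptor genes in each of the 21 libraries, by group, with a marker for each replicate number, a bar at the mean and whiskers of 1 SD (n = 3). Clec7a lay at 853 or above in all 6 libraries with both cytokines and at or below 300.5 in all 9 libraries without IL-4, and Clec4n kept 1 order of the replicate numbers in all 7 groups.

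Of 90 pairs of a receptor gene with a comparison (6 genes in 15 comparisons), 22 were called. Among all tested genes, the share called ran from 0.369% (interaction at 2 h) to 42.6% (combination against untreated cells at 4 h). The total is thus read only by comparison, as below. Clec7a rose wherever IL-4 was present, and the combination was the group with its highest level. Clec4e, Clec4d and Clec12a fell at 4 h in both groups that received IL-4. Clec5a rose with IFN-γ alone at 4 h, and no comparison called Clec4n.

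With both cytokines at 2 h, 1 of the 6 genes was called against untreated cells (Clec7a, higher), where 22.2% of all tested genes were called (12.8% higher, 9.38% lower). With both at 4 h, 4 of the 6 were called (Clec7a higher, Clec4e, Clec4d and Clec12a lower) beside 42.6% of all genes (22.8% higher, 19.8% lower). IFN-γ alone gave no call at 2 h, where 17.9% of all genes were called (10.8% higher, 7.1% lower); here 0 of the 6 had an unadjusted p under 0.05, and edgeR and DESeq2 on the recovered reads called 0. At 4 h it gave 2 calls (Clec5a higher, Clec4d lower) beside 39.2% of all genes (21.3% higher, 17.8% lower). IL-4 alone gave 1 call at 2 h (Clec7a, higher) beside 8.62% (5.51% higher, 3.11% lower), and 4 calls at 4 h (Clec7a higher, Clec4e, Clec4d and Clec12a lower) beside 22.1% (12% higher, 10.1% lower). The comparisons with untreated cells share those 3 libraries, so their calls are not independent of each other.

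Set against IFN-γ alone, the combination gave 1 call at 2 h (Clec7a, higher) beside 3.01% of all genes (2.22% higher, 0.782% lower), and 4 calls at 4 h (Clec7a higher, Clec4e, Clec5a and Clec12a lower) beside 11.9% (5.9% higher, 5.98% lower). Set against IL-4 alone it gave 0 calls at 2 h, where 14.8% of all genes were called (8.68% higher, 6.13% lower); 1 of the 6 had an unadjusted p under 0.05, DESeq2 called 1 and edgeR called 0. At 4 h it gave 1 call (Clec7a, higher) beside 30.9% (15.7% higher, 15.2% lower). Between 2 h and 4 h the combination gave 2 calls (Clec4e and Clec5a, lower at 4 h) beside 18.3% (9.41% higher, 8.89% lower), and IFN-γ alone gave 1 (Clec5a, higher at 4 h) beside 17.7% (9.89% higher, 7.77% lower). IL-4 alone gave 0 calls beside 2.81% (1.27% higher, 1.55% lower), with 4 of the 6 at an unadjusted p under 0.05, 1 call in DESeq2 and 0 in edgeR. The interaction, the change under both cytokines minus the sum of the changes under each alone, gave 0 calls at 2 h beside 0.369% of all genes, 0.0791% higher and 0.29% lower (0 of the 6 at an unadjusted p under 0.05, and 0 calls in edgeR and in DESeq2), and 1 call at 4 h (Clec5a, lower than the sum) beside 1.7% (0.738% higher, 0.967% lower).

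The number of calls depended on how the replicate numbers were treated. With the number as a block, 43 of the 90 pairs were called instead of 22, and the share of all genes called then ran from 3.01% (interaction at 2 h) over 63.3% (IFN-γ at 4 h) to 66.7% (combination against untreated cells at 4 h). Without all libraries of replicate number 1, 2 or 3, and thus with 2 libraries a group each time, 16, 26 and 4 pairs were called. The share of all genes called is not given for these fits. On the deposited CPM without rescaling, 18 pairs were called, and the share of all genes called ran from 0.395% (interaction at 2 h) to 36.6% (IL-4 at 4 h). There the median change over all tested genes was 0.10 to 0.43 against untreated cells, and changes there are read relative to it. At 4 h the calls were 1 higher and 2 lower for the combination (32.1% of all genes called), 1 higher for IFN-γ (25.3%), and 1 higher and 2 lower for IL-4 (36.6%). For IL-4 at 2 h they were 2 higher (16.7%).

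**Figure D2:**
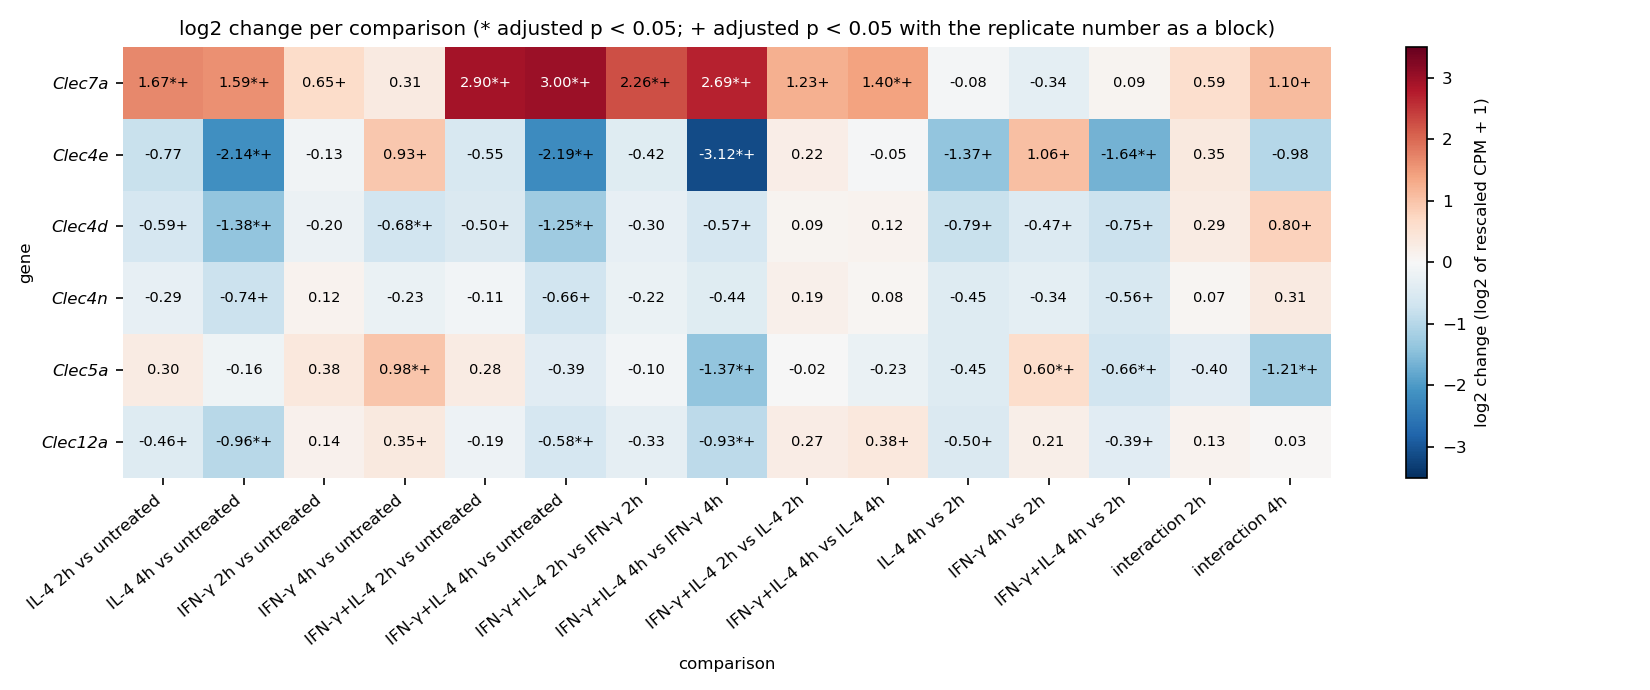
Log2 change of the 6 receptor genes (rows) in the 15 comparisons (columns), colour from -3.5 (blue) to 3.5 (red), with an asterisk for an adjusted p under 0.05 and a plus for the same with the replicate number as a block. The row of Clec7a is positive in every comparison in which IL-4 was added, while the Clec4e row holds the lowest value, -3.12 for the combination against IFN-γ at 4 h.

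Clec7a lies on chromosome 6 (129461591 to 129472779, minus strand, GRCm38, GENCODE vM21, 2638 exon bases), and that annotation labels it a polymorphic pseudogene. The 250 bases before its start (chr6:129472780-129473029 on the minus strand, RefSeq, GRCm38.p6) are shown because the gene was the one that IL-4 raised, with capitals for every searched motif:
Clec7a promoter: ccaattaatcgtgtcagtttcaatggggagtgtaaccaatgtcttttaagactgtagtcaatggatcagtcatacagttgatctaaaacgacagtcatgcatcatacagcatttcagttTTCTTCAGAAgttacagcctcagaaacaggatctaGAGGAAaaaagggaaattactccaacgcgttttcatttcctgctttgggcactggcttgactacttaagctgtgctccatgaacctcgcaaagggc
The window holds the palindromic STAT6 pattern (TTC and GAA with any 4 bases between), which begins 131 bases before the start, and GAGGAA, the core of sites for the myeloid factor PU.1, which begins 96 bases before it. Of all 32851 promoter windows of this length, 5.85% hold the STAT6 pattern and 23.3% hold GAGGAA on either strand. The other patterns searched, also on both strands, were GAAA repeated after any 2 bases for interferon response elements, GGG and CC with any 5 bases between for NF-kB, TGANTCA for AP-1 and TTNNGNAA for C/EBP, and the Clec7a window matched none of these. Such matches describe letters in the window and are not evidence of binding.

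Clec7a reached 1255, 1008 and 867 rescaled CPM in replicates 1 to 3 with both cytokines at 2 h and 1481, 1049.8 and 853 at 4 h. With IFN-γ alone the 3 values were 299, 132 and 252 after 2 h, then 300.5, 105 and 155 after 4 h. With IL-4 alone they were 585, 304 and 471 after 2 h, then 561, 316 and 401 after 4 h, against 242, 82.5 and 128 in untreated cells. All 6 libraries with both cytokines were above all 6 with IL-4 alone, these were above all 9 others, and IFN-γ and untreated libraries overlapped. In order of mean level, the combination at 4 h and 2 h came first (1128 ± 321 and 1043 ± 197), and the ranges of these groups overlapped. IL-4 at 2 h and 4 h followed (453 ± 142 and 426 ± 124), also overlapping. IFN-γ at 2 h and 4 h (227 ± 86.0 and 187 ± 102) and untreated cells (151 ± 82.0) were last, each overlapping with the next.

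Relative to untreated cells, Clec7a rose 6.91-fold in the mean with both cytokines at 2 h (log2 change 2.90 ± 0.43, adjusted p = 6.71e-05) and 7.48-fold at 4 h (3.0 ± 0.43, adjusted p = 2.38e-05). Both calls held without any single library and without all libraries of any replicate number. Within replicate numbers 1, 2 and 3 the change at 4 h was 2.61, 3.65 and 2.72. IL-4 alone raised the gene 3.0-fold at 2 h (1.67, adjusted p = 0.0188) and 2.82-fold at 4 h (1.59, adjusted p = 0.0118). Within numbers 1, 2 and 3 these changes at 2 h were 1.27, 1.87 and 1.87, with 1.21, 1.93 and 1.64 at 4 h. In the fit without a block, the IL-4 calls rested on few libraries. The blocked adjusted p with all libraries was 1.06e-05 at 2 h and 7.68e-06 at 4 h. At 2 h the adjusted p was 0.104 and 0.0684 when untreated replicate 2 or 3 was left out, and 0.0973 and 0.0645 when IL-4 replicate 1 or 3 was left out. At 4 h the loss of untreated replicate 2 gave 0.0669, and that of IL-4 replicate 1 gave 0.0583. With untreated replicate 1, the one poor in Rn45s, as the lone control, the IL-4 changes were 0.85 at 2 h and 0.77 at 4 h. That fit sets number 1 against IL-4 libraries of all 3 numbers, and Clec7a was highest in number 1 in 7 of 7 groups. Its smaller changes therefore mix the control with the replicate number. Within number 1 the changes were 1.27 and 1.21, as given above.

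IFN-γ alone did not give a call for Clec7a (0.65 at 2 h, adjusted p = 0.387, blocked 0.0208; 0.31 at 4 h, adjusted p = 0.618). Added to IL-4, however, IFN-γ went with a higher level. The combination exceeded IL-4 alone 2.65-fold at 4 h (1.40 ± 0.43, adjusted p = 0.0182, blocked 2.18e-05), and by 1.40, 1.73 and 1.09 within replicate numbers 1, 2 and 3. This call was lost without IL-4 replicate 2 (1.21, adjusted p = 0.0713), without IL-4 replicate 3 (1.38, adjusted p = 0.0525), without combination replicate 1 (1.19, adjusted p = 0.0806) and on the deposited CPM (1.14, adjusted p = 0.0635). At 2 h the mean ratio was 2.30 and the change 1.23 missed the threshold (adjusted p = 0.0637, blocked 0.000164), although the libraries did not overlap. Relative to IFN-γ alone, the combination raised Clec7a 4.59-fold at 2 h (2.26, adjusted p = 0.00449) and 6.04-fold at 4 h (2.69, adjusted p = 0.00035). Both of these calls held without any single library, and not without all libraries of number 3, where the adjusted p was 0.285 at 2 h and 0.061 at 4 h. The excess over the sum of both single-cytokine changes was 0.59 ± 0.60 at 2 h (adjusted p = 1.00) and 1.10 ± 0.60 at 4 h (adjusted p = 0.543, blocked 0.0191).

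The direct neighbours of Clec7a encode further lectin receptors. Olr1 (LOX-1, a receptor for oxidised LDL), 12465 bases away, had a mean of 4.31 ± 0.997 rescaled CPM with both cytokines at 2 h, 0.218 ± 0.100 with IFN-γ, 1.77 ± 0.312 with IL-4 and 0.127 ± 0.0494 in untreated cells. Clec1a, 9591 bases away on the other side, had 10.6 ± 9.24 with both cytokines at 2 h, 8.04 ± 4.81 with IFN-γ, 1.59 ± 1.57 with IL-4 and 1.30 ± 0.585 in untreated cells. Of the single cytokines at 2 h, Olr1 thus had the higher mean with IL-4, like Clec7a, and Clec1a with IFN-γ. All 3 genes had their highest mean in a group with both, but for Clec1a the ranges with both and with IFN-γ at 2 h overlapped. At 4 h Olr1 had 1.60 ± 0.698 with both and 2.00 ± 0.406 with IL-4. Olr1 had enough reads to be tested only through libraries with IL-4, so its levels are given without a test.

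Clec4e, Clec4d and Clec4n are direct neighbours on chromosome 6 (GRCm38, GENCODE vM21). Clec4n (123229843 to 123247021, plus strand) is followed after 15090 bases by Clec4d (123262111 to 123275265, plus strand), and this after 6524 bases by Clec4e (123281789 to 123289870, minus strand). Their exons add up to 1420, 1599 and 4965 bases, and no other annotated gene overlaps them. The windows before the starts of Clec4e (chr6:123289872-123290121 on the minus strand) and Clec4d (chr6:123261857-123262106 on the plus strand), which both fell at 4 h wherever IL-4 was given, are shown with capitals for every searched motif:
Clec4e promoter: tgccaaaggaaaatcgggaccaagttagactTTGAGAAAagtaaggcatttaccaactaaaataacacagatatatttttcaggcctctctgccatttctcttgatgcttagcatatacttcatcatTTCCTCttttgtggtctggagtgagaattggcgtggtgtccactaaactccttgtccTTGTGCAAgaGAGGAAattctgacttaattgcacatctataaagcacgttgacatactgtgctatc
Clec4d promoter: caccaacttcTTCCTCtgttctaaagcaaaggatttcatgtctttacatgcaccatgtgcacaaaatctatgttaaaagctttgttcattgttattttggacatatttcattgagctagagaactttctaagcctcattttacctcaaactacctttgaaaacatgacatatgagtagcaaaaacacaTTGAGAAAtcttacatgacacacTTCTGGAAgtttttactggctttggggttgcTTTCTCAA
In Clec4e the C/EBP pattern TTNNGNAA begins 219 and 66 bases before the start and GAGGAA begins 123 (as TTCCTC) and 56 bases before it. In Clec4d the C/EBP pattern begins 62, 39 and 8 bases before the start and GAGGAA, as TTCCTC, 240 bases before it. The C/EBP pattern is common, being held by 36.8% of all windows. No match of the STAT6, interferon response, NF-kB or AP-1 pattern was found in either window.

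Clec4e had 80.9, 47.5 and 35.8 rescaled CPM with both cytokines at 2 h and 25.1, 15.1 and 10.5 at 4 h. With IFN-γ alone it had 104, 46.6 and 69.2 at 2 h, and 369, 55.6 and 151 at 4 h. With IL-4 alone it had 71.9, 34.5 and 34.5 at 2 h and 19.7, 14.6 and 15.6 at 4 h, against 135, 58.1 and 55.8 in untreated cells. The 6 libraries with IL-4 at 4 h, alone or combined, were below all 15 others. IFN-γ replicates 1 and 3 at 4 h were above all other libraries, and replicate 2 of that group, at 55.6, lay just below the lowest untreated value of 55.8. The mean level was highest with IFN-γ at 4 h (192 ± 160.5) and next in untreated cells (83.0 ± 45.1), which overlapped. The group means from there down to IL-4 at 2 h (47.0 ± 21.6) overlapped with their neighbours too, and the single step without overlap in the order was the one to the combination at 4 h (16.9 ± 7.48) and IL-4 at 4 h (16.6 ± 2.72).

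Clec4e fell 4.92-fold with both cytokines at 4 h against untreated cells (log2 change -2.19 ± 0.55, adjusted p = 0.00422), by 2.38, 1.88 and 2.31 on the log2 scale within numbers 1, 2 and 3. IL-4 alone lowered it 4.99-fold at 4 h (-2.14 ± 0.55, adjusted p = 0.00959), and without untreated replicate 1 the change was -1.73 (adjusted p = 0.0539). Without all libraries of number 3 the adjusted p at 4 h was 0.0951 for the combination and 0.135 for IL-4. At 2 h neither was called (-0.55 for the combination, adjusted p = 0.591; -0.77 for IL-4, adjusted p = 0.581). Between 2 h and 4 h with both cytokines the level fell 3.24-fold (-1.64 ± 0.55, adjusted p = 0.0493). That value stood at the threshold. It did not pass without combination replicate 1 at 2 h (-1.32, adjusted p = 0.178), replicate 2 at 2 h (-1.70, 0.0837), replicate 3 at 2 h (-1.90, 0.0559), replicate 2 at 4 h (-1.61, 0.110) or replicate 3 at 4 h (-1.36, 0.165), nor without the filter on low values (0.0803). The same step with IL-4 alone was -1.37 (adjusted p = 0.253, blocked 0.00421).

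IFN-γ alone gave a mean ratio of 2.31 for Clec4e at 4 h, which was not called (0.93 ± 0.55, adjusted p = 0.202, blocked 0.0128). The 3 replicate numbers differed, with changes of 1.44, -0.06 and 1.42 within numbers 1, 2 and 3. Without IFN-γ replicate 2 the change was 1.62 (adjusted p = 0.0182). In that library other inflammatory genes were also low: the summed level of 20 genes that lectin receptor signalling is known to raise was 2971, 523 and 2008 rescaled CPM in IFN-γ replicates 1, 2 and 3 at 4 h, and Tnf alone had 1000.5, 243 and 954. That sum was lowest in replicate number 2 in 7 of 7 groups (297, 171 and 181 in untreated replicates 1, 2 and 3). The part of this difference in the result was not tested. The step between 2 h and 4 h with IFN-γ alone was 1.06 (adjusted p = 0.215, blocked 0.00908), and 1.75 without IFN-γ replicate 2 at 4 h (adjusted p = 0.023).

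The combination at 4 h held 11.4-fold less Clec4e than IFN-γ alone (-3.12 ± 0.55, adjusted p = 0.000958), a call that held without any single library, and not without all libraries of number 3 (-2.82, adjusted p = 0.125). Within numbers 1, 2 and 3 the change was -3.82, -1.82 and -3.73. Compared with IL-4 alone, the combination gave -0.05 ± 0.55 at 4 h (adjusted p = 0.963) and 0.22 ± 0.55 at 2 h (adjusted p = 0.942). The interaction at 4 h was -0.98 ± 0.78 (adjusted p = 0.77, blocked 0.133).

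Clec4d, the partner of Clec4e, had 403, 287 and 316 rescaled CPM with both cytokines at 2 h and 218, 185 and 188 at 4 h. With IFN-γ alone it had 478, 284 and 499 at 2 h, and 421, 209.9 and 285 at 4 h. With IL-4 alone it had 376, 238 and 341 at 2 h and 189, 169.7 and 183 at 4 h, against 626, 391 and 424 in untreated cells. Untreated cells had the highest mean (480.5 ± 127) and IL-4 at 4 h the lowest (181 ± 9.89). Each group overlapped with the next in the order of means, which ran through IFN-γ at 2 h (420.3 ± 118), the combination at 2 h (335 ± 60.5), IL-4 at 2 h (318 ± 71.8), IFN-γ at 4 h (305 ± 107) and the combination at 4 h (197 ± 18.3).

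Clec4d fell 2.44-fold with both cytokines at 4 h (log2 change -1.25 ± 0.26, adjusted p = 0.000839) and 2.66-fold with IL-4 alone (-1.38 ± 0.26, adjusted p = 0.000869). Within numbers 1, 2 and 3 the changes were -1.52, -1.08 and -1.17 for the combination and -1.72, -1.20 and -1.21 for IL-4. Neither call was lost without a single library. Without all libraries of number 3 the adjusted p was 0.042 for the combination and 0.0565 for IL-4. IFN-γ alone lowered it 1.57-fold at 4 h (-0.68 ± 0.26, adjusted p = 0.0465), in each number (-0.57, -0.89 and -0.57), although the libraries overlapped. This call was lost on the deposited CPM (-0.56, adjusted p = 0.165) and without untreated replicate 1 (-0.47, 0.200), untreated replicate 3 (-0.75, 0.0642), IFN-γ replicate 2 (-0.44, 0.211) or IFN-γ replicate 3 (-0.66, 0.102). Unlike Clec4e, whose values under IFN-γ at 4 h reached 369, Clec4d was not above untreated cells in any IFN-γ library of the same number at 4 h. A difference between both genes was not tested.

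At 2 h Clec4d gave -0.50 with both cytokines (adjusted p = 0.207, blocked 0.00885), -0.20 with IFN-γ (adjusted p = 0.738) and -0.59 with IL-4 (adjusted p = 0.231, blocked 0.0055). Between 2 h and 4 h it gave -0.75 with both (adjusted p = 0.0525, blocked 0.000398), -0.47 with IFN-γ (adjusted p = 0.235, blocked 0.0123) and -0.79 with IL-4 (adjusted p = 0.129, blocked 0.0009). The combination differed from IFN-γ alone at 4 h by -0.57 (adjusted p = 0.192, blocked 0.00483) and from IL-4 alone by 0.12 ± 0.26 (adjusted p = 0.782). The interaction at 4 h was 0.80 ± 0.37 (adjusted p = 0.418, blocked 0.0134).

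Clec4n, for which no promoter entry was found, varied more with the replicate number than with any cytokine. It had 121, 17.8 and 67.1 rescaled CPM with both cytokines at 2 h and 88.8, 13.0 and 38.0 at 4 h. With IFN-γ alone it had 137, 16.6 and 101 at 2 h and 154, 11.8 and 60.0 at 4 h. With IL-4 alone it had 109, 13.1 and 67.0 at 2 h and 71.0, 13.4 and 39.0 at 4 h, against 149, 19.3 and 62.9 in untreated cells. Replicate 1 was the highest, replicate 3 next and replicate 2 the lowest in 7 of 7 groups. The ratio of replicate 1 to replicate 2 ran from 5.30 (IL-4 at 4 h) to 13.1 (IFN-γ at 4 h), with a median of 7.71. All 7 groups overlapped with their neighbours in the order of means, which ran between 84.9 ± 62.0 (IFN-γ at 2 h) and 41.1 ± 28.9 (IL-4 at 4 h).

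No comparison called Clec4n, whose SE of 1.12 on the log2 scale was the largest of the 6 genes. Its unadjusted limma p was above 0.5 in all 15, and neither edgeR nor DESeq2 called it. Its largest changes were -0.74 with IL-4 at 4 h (adjusted p = 0.723, blocked 0.00436), -0.66 with both cytokines at 4 h (adjusted p = 0.674, blocked 0.00606) and -0.56 for both cytokines between 2 h and 4 h (adjusted p = 0.801, blocked 0.026). Within numbers 1, 2 and 3 the change was -1.05, -0.49 and -0.68 with IL-4 at 4 h and -0.74, -0.54 and -0.71 with both. IFN-γ at 4 h gave 0.05, -0.66 and -0.07 within the 3 numbers (-0.23, adjusted p = 0.901).

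The other receptor genes followed the replicate numbers less closely. Replicate 1 was the highest in 7 of 7 groups for Clec4e (1.35 to 6.63 times replicate 2) and for Clec7a (1.24 to 2.93 times), and in 6 of 7 for Clec4d (1.11 to 2.00 times). Clec12a ran the other way, with replicate 2 the highest in 6 of 7 groups (ratio of replicate 1 to replicate 2 0.661 to 1.07). For Clec5a no number was the highest in more than 3 of 7 groups (0.798 to 2.16).

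**Figure D3:**
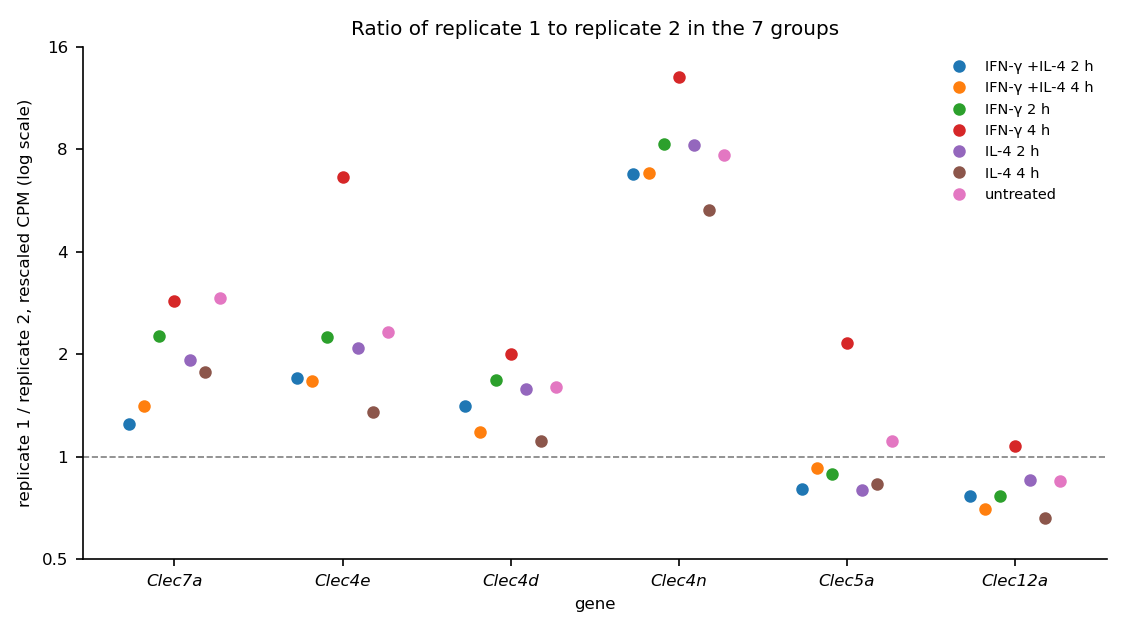
Ratio of replicate 1 to replicate 2 in rescaled CPM (vertical axis, log scale) for each receptor gene, with 1 point for each of the 7 groups and a dashed line at equal levels. All 7 points of Clec4n lie at 5.30 or above, and no other gene had more than 1 point above 3.

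Marker lists of cell types moved with the replicate numbers as well. The summed level of 10 macrophage genes, Csf1r and Lyz2 among them, was lowest in replicate 2 in 7 of 7 groups, with medians over groups of 31798, 17884 and 29455 rescaled CPM in numbers 1, 2 and 3. The 5 monocyte markers were highest in number 2 in 7 of 7 groups (medians 206, 350.4 and 169). The 9 neutrophil markers found in the table were highest in number 1 and lowest in number 3 in 7 of 7 groups (medians 254, 195 and 90.8), and the 6 dendritic cell markers were lowest in number 2 in 7 of 7 (medians 4.81, 2.86 and 4.64). By these medians the macrophage and dendritic cell sums had the order of Clec4n (1, 3, 2), and the neutrophil sum had the order 1, 2, 3. The part of these differences in the levels of the receptor genes was not tested.

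Clec5a (chromosome 6, 40574894 to 40585821, minus strand, 3840 exon bases) was the receptor gene that IFN-γ alone raised, and the one for which the combination fell short of the sum of the single changes. The window before its start (chr6:40585806-40586055 on the minus strand) is shown for comparison with that of Clec7a, since it also holds the STAT6 pattern:
Clec5a promoter: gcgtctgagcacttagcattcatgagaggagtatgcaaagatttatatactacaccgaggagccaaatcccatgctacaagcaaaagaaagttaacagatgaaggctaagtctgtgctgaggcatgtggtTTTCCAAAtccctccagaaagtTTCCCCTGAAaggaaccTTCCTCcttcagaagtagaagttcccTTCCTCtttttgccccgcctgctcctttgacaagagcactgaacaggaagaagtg
The STAT6 pattern begins 98 bases before the start, the C/EBP pattern (as TTTCCAAA) 120 bases and GAGGAA (as TTCCTC) 81 and 55 bases before it. The interferon response, NF-kB and AP-1 patterns had no match.

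Clec5a had 52.8, 65.9 and 56.6 rescaled CPM with both cytokines at 2 h and 35.9, 38.7 and 34.6 at 4 h. With IFN-γ alone it had 55.5, 62.4 and 70.7 at 2 h, and 134, 62.1 and 105 at 4 h. With IL-4 alone it had 51.2, 64.2 and 62.1 at 2 h and 37.7, 45.3 and 45.9 at 4 h, against 50.2, 45.2 and 48.3 in untreated cells. IFN-γ replicates 1 and 3 at 4 h were the highest of all 21 libraries, and replicate 2 of that group lay within the range of the 2 h groups. The mean was highest with IFN-γ at 4 h (100.2 ± 36.1), and it overlapped with IFN-γ at 2 h (62.9 ± 7.58), IL-4 at 2 h (59.2 ± 6.98) and the combination at 2 h (58.4 ± 6.74). A gap followed to untreated cells (47.9 ± 2.54), which overlapped with IL-4 at 4 h (42.9 ± 4.58), and this with the combination at 4 h (36.4 ± 2.07).

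Clec5a rose 2.09-fold with IFN-γ alone at 4 h (log2 change 0.98 ± 0.19, adjusted p = 0.000673), by 1.40, 0.45 and 1.10 within numbers 1, 2 and 3. No single library decided this call. Without all libraries of number 3 the adjusted p was 0.0595. The combination at 4 h held 2.75-fold less than IFN-γ alone (-1.37 ± 0.19, adjusted p = 0.000132; -1.87, -0.67 and -1.57 within the numbers), and this held without any single library (adjusted p = 0.0614 without number 3). Against untreated cells the combination gave -0.39 at 4 h (adjusted p = 0.122) and IL-4 alone gave -0.16 (adjusted p = 0.648). The interaction at 4 h was -1.21 ± 0.27 (adjusted p = 0.0325, blocked 0.00562). Its value lay between -1.52 and -0.97 when a single library was left out, without a block. The call was lost in 10 of the 12 such fits, with adjusted p of 0.0575, 0.0719 and 0.074 without untreated replicates 1, 2 and 3, 0.0731 and 0.0809 without IL-4 replicates 2 and 3, 0.0703 and 0.0969 without IFN-γ replicates 1 and 3, and 0.0679, 0.0561 and 0.0774 without combination replicates 1, 2 and 3.

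Over time Clec5a moved in opposite directions with both cytokines and with IFN-γ alone. Whether these steps differ between the treatments was not tested. With both, it fell 1.61-fold between 2 h and 4 h (-0.66 ± 0.19, adjusted p = 0.0248; -0.54, -0.75 and -0.69 within the numbers). The adjusted p was 0.0868 and 0.056 without combination replicates 2 and 3 at 2 h, and 0.0653 and 0.0746 without replicates 1 and 3 at 4 h. With IFN-γ alone it rose 1.59-fold (0.60 ± 0.19, adjusted p = 0.0412; 1.25, -0.01 and 0.56 within the numbers). This call was lost on the deposited CPM (0.41, adjusted p = 0.314), with TMM factors (0.56, 0.0569), without the filter on low values (0.0621) and in 5 fits without a single library. These gave adjusted p of 0.131, 0.0881 and 0.0522 without IFN-γ replicates 1, 2 and 3 at 2 h, and 0.236 and 0.131 without replicates 1 and 3 at 4 h. With IL-4 alone the step was -0.45 (adjusted p = 0.297). At 2 h the changes against untreated cells were 0.28 for both (adjusted p = 0.389), 0.38 for IFN-γ (adjusted p = 0.224) and 0.30 for IL-4 (adjusted p = 0.519), and on the deposited CPM the change with IL-4 was 0.72 (adjusted p = 0.0457), where the median of all genes was 0.39.

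Clec12a (chromosome 6, 129342691 to 129365303, plus strand, 5528 exon bases), the inhibitory receptor, had 344, 448 and 296 rescaled CPM with both cytokines at 2 h and 241, 344 and 242 at 4 h. With IFN-γ alone it had 385, 502 and 467 at 2 h, and 558, 519.8 and 479.6 at 4 h. With IL-4 alone it had 280.0, 329 and 283 at 2 h and 169, 256 and 210.0 at 4 h, against 395, 464 and 369 in untreated cells. All 3 IFN-γ libraries at 4 h were above all untreated ones, and all libraries at 4 h with IL-4, alone or combined, were below them. Every group overlapped with the next in the order of means, from IFN-γ at 4 h (519 ± 39.0) over IFN-γ at 2 h (451 ± 59.9), untreated cells (409 ± 49.5), the combination at 2 h (363 ± 77.6), IL-4 at 2 h (297 ± 27.3) and the combination at 4 h (276 ± 59.3) to IL-4 at 4 h (212 ± 43.5). Its RefSeq promoter window starts 7553 bases from the GENCODE start and is therefore not printed.

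Clec12a fell 1.48-fold with both cytokines at 4 h (log2 change -0.58 ± 0.18, adjusted p = 0.015; -0.71, -0.43 and -0.60 within numbers 1, 2 and 3). This call was lost without untreated replicate 2 (-0.49, adjusted p = 0.0656), combination replicate 1 (-0.50, 0.0667) or combination replicate 3 (-0.50, 0.0634). IL-4 alone lowered it 1.93-fold at 4 h (-0.96 ± 0.18, adjusted p = 0.000849; -1.22, -0.85 and -0.81 within the numbers), and no single library decided this. On the deposited CPM both calls were lost, with changes of -0.37 for the combination (adjusted p = 0.265) and -0.48 for IL-4 (adjusted p = 0.115), where the medians of all genes were 0.19 and 0.43. With IFN-γ alone at 4 h Clec12a gave 0.35 (adjusted p = 0.143, blocked 0.0131; 0.50, 0.16 and 0.38 within the numbers).

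The combination held 1.88-fold less Clec12a than IFN-γ alone at 4 h (-0.93 ± 0.18, adjusted p = 0.00197; -1.21, -0.59 and -0.98 within the numbers). The call held without any single library, and the adjusted p was 0.101 without number 1 and 0.112 without number 3. Compared with IL-4 alone at 4 h, the combination gave 0.38 (adjusted p = 0.128, blocked 0.00891), and without IL-4 replicate 2 it gave 0.53 (adjusted p = 0.0498). With IL-4 at 2 h the change against untreated cells was -0.46 (adjusted p = 0.157, blocked 0.00603), and the step between 2 h and 4 h was -0.50 (adjusted p = 0.17, blocked 0.00453). With both cytokines that step was -0.39 (adjusted p = 0.147, blocked 0.00891), and -0.56 without combination replicate 2 at 4 h (adjusted p = 0.049). The interaction at 4 h was 0.03 ± 0.25 (adjusted p = 0.999).

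Levels can be compared between the 6 genes only per exon length, and on that scale the leading receptor changed with the cytokines. With both cytokines at 4 h, Clec7a led with 428 ± 122 rescaled CPM per kb, before Clec4d (123 ± 11.4), Clec12a (49.9 ± 10.7), Clec4n (32.8 ± 27.2), Clec5a (9.48 ± 0.538) and Clec4e (3.40 ± 1.51). With IFN-γ alone at 4 h Clec4d led (191 ± 66.8), and Clec4e, at 38.6 ± 32.3, stood above Clec5a at 26.1 ± 9.40 within the spread. With IL-4 alone at 4 h Clec7a (162 ± 47.1) and Clec4d (113 ± 6.18) led. In untreated cells Clec4d led with 300.5 ± 79.7 per kb, before Clec12a (74.0 ± 8.95), Clec7a (57.2 ± 31.1) and Clec4n (54.2 ± 46.3), whose spreads overlapped, and Clec4e (16.7 ± 9.08) and Clec5a (12.5 ± 0.661) were lowest.

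**Figure D4:**
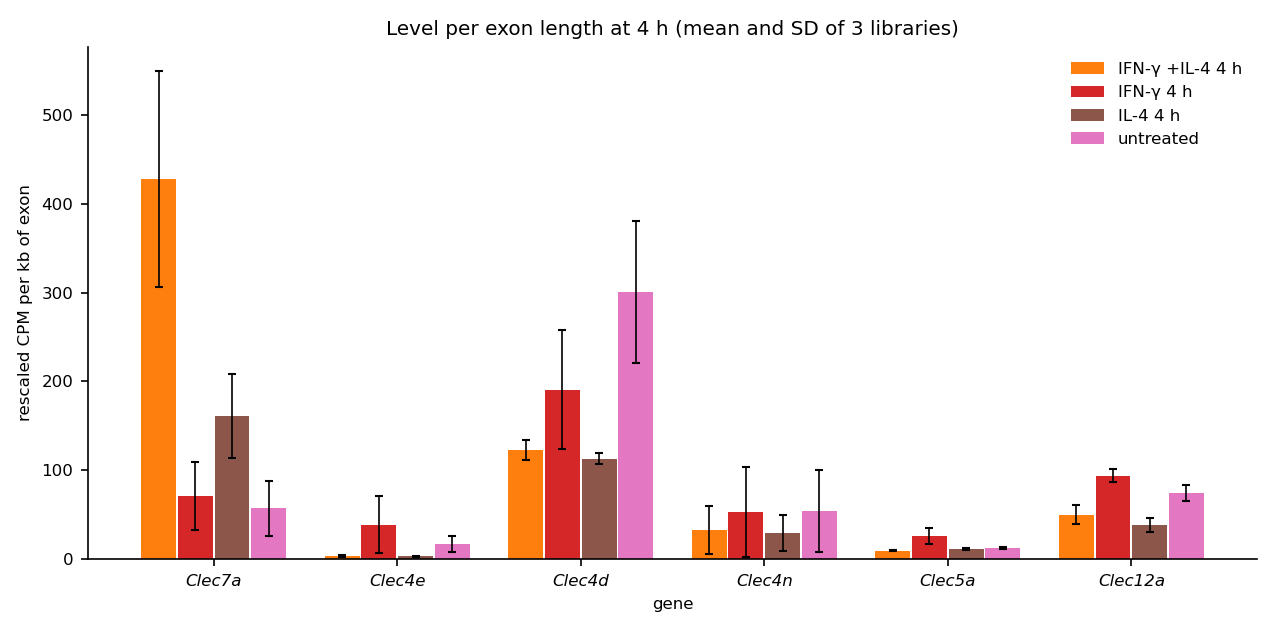
Level per exon length (rescaled CPM per kb, linear axis from 0) of the 6 receptor genes at 4 h with both cytokines, IFN-γ or IL-4, and in untreated cells, as the mean with a whisker of 1 SD (n = 3). Clec7a reaches 428 with both cytokines and 57.2 in untreated cells, while Clec4d is at 123 and 300.5.

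Among 35 other C-type lectin receptor genes, 20 had enough reads to be tested and 3 (Clec14a, Cd209b and Cd209f) had no read in any library. Of the 20, 4 (Cd69, Clec9a, Ly75 and Klra2) passed the filter on low values only through libraries with IFN-γ, and 2 (Olr1 and Klra2) only through libraries with IL-4. The counts and medians of the 20, here and below, include these genes. Such counts and medians are descriptions and are not read against the values over all genes. With IFN-γ at 4 h, 5 of the 20 rose and 3 fell, beside 21.3% and 17.8% of all genes. Their median change was 0.32, against 0.00 over all genes. Cd69, an activation marker of lymphocytes that macrophages also express, had 154 ± 61.3 rescaled CPM with IFN-γ and 1.96 ± 0.786 in untreated cells, and Clec9a, a receptor for actin of dead cells, had 3.18 ± 1.31 and 0.370 ± 0.0676. Both are given without a test. Clec10a, a galactose-type lectin, rose by 2.64 on the log2 scale (adjusted p = 0.00911) and Clec2d, a ligand of NK receptors, by 1.39 (adjusted p = 0.00157). Without all libraries of number 3 these adjusted p were 0.173 and 0.0766. The mannose receptor gene Mrc1 gave 0.15 (adjusted p = 0.54).

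Of the same 20 genes, those selected by the filter included, 2 were higher and 3 lower with both cytokines than with IFN-γ alone at 4 h. Of all genes, 5.9% were higher and 5.98% lower. The median was -0.29, with -0.03 over all genes. Mrc1 was higher, at 3426 ± 755 rescaled CPM with both, against 1252 ± 53.8 with IFN-γ (1.43, adjusted p = 2.69e-05). Without a test, Olr1 had 1.60 ± 0.698 with both and 0.240 ± 0.126 with IFN-γ, and Cd69 had 20.6 ± 6.15 with both and 153.7 ± 61.3 with IFN-γ. Cd93, a receptor in the uptake of dead cells, was lower (-0.98, adjusted p = 0.00447), but not on the deposited CPM (adjusted p = 0.0982) or without number 3 (adjusted p = 0.184). With IL-4 alone at 4 h, 3 of the 20, again with the selected genes included, were higher and 5 lower than in untreated cells. Of all genes, 12% were higher and 10.1% lower. The median was -0.19, with -0.01 over all genes. Mrc1 rose to 3779 ± 627 rescaled CPM with IL-4, against 1128 ± 45.7 in untreated cells (1.73, adjusted p = 1.76e-06). Mgl2, a close relative of Clec10a with which it may share reads, rose by 2.75 (adjusted p = 0.0121, and 0.2 without number 3), and Cd93 fell to 327 ± 45.2, against 1096 ± 34.3 (-1.75, adjusted p = 1.31e-05). Mrc1 thus rose with IL-4 as Clec7a did, and Cd93 fell as Clec4d did. For IL-4 at 4 h the deposited CPM gave 4 higher and 2 lower calls among the 20, where the median over all genes was 0.43.

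The adaptors and kinases through which these receptors act form a list of 26 genes, all tested. With IFN-γ at 4 h, 7 rose and 3 fell, beside 21.3% and 17.8% of all genes (median 0.17). The adaptor genes themselves were not called: Fcer1g had 1046 ± 143 rescaled CPM with IFN-γ and 916 ± 58.9 in untreated cells (0.18, adjusted p = 0.309, blocked 0.0492), and Tyrobp had 877 ± 105 and 884 ± 88.5 (-0.01, adjusted p = 0.963). Malt1, part of the Card9 complex, rose by 1.92 (adjusted p = 0.00043, and 0.0522 without number 3), the kinase gene Lyn by 1.48 (adjusted p = 2.09e-05) and Pik3cd, a PI3 kinase subunit, by 1.72 (adjusted p = 3.89e-06). Blnk, a linker of Syk to phospholipase C, fell by 1.57 (adjusted p = 3.83e-08). With both cytokines, 1 was higher and 6 lower than with IFN-γ alone at 4 h, beside 5.9% and 5.98% of all genes (median -0.28). The lower ones included Nfatc2, a calcium-regulated factor (-1.73, adjusted p = 4.69e-05). Lyn (-0.86, adjusted p = 0.00835) and Vav1 (-0.77, adjusted p = 0.0159) were lower as well, and were not called on the deposited CPM (adjusted p = 0.0809 and 0.0958) or without number 3 (adjusted p = 0.205 and 0.35). Fcer1g (-0.17, adjusted p = 0.551) and Tyrobp (-0.10, adjusted p = 0.865) were not called. With IL-4 alone at 4 h, 1 was higher and 10 lower than in untreated cells, beside 12% and 10.1% of all genes (median -0.34). The deposited CPM gave 7 higher and 3 lower, but there the median over all genes was 0.43 and 36.6% were called. Calls on that scale are read relative to this median, and they do not show a change of direction of the list.

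Of 11 inhibitors of this signalling, 4 rose and 2 fell with IFN-γ at 4 h, beside 21.3% and 17.8% of all genes (median -0.12). Ubash3b, a phosphatase that acts on Syk, rose to 148 ± 38.1 rescaled CPM with IFN-γ, against 23.2 ± 5.34 in untreated cells (2.60, adjusted p = 8.61e-08). Dok2, an adaptor that dampens Ras signalling, rose by 2.28 (adjusted p = 9.3e-07), and Ptpn6 (SHP-1, a phosphatase recruited by inhibitory motifs such as that of CLEC12A) by 1.21 (adjusted p = 1.5e-06). Sla, an adaptor that lowers antigen receptor levels, fell by 1.96 (adjusted p = 5.96e-05). Between the combination and IFN-γ alone at 4 h, 1 was higher (Dok2, 1.27, adjusted p = 0.00132) and 3 lower, beside 5.9% and 5.98% of all genes, with a median of -0.31. These were Inppl1, a lipid phosphatase gene (-1.14, adjusted p = 5.87e-06), Ubash3b (-0.99, adjusted p = 0.0051) and Ptpn6 (-0.57, adjusted p = 0.0068), of which Ptpn6 was not called on the deposited CPM (adjusted p = 0.21). Ubash3b was not called without number 3 (adjusted p = 0.144), nor Ptpn6 without number 1 (adjusted p = 0.229). With IL-4 alone at 4 h, 3 were higher and 6 lower than in untreated cells, beside 12% and 10.1% of all genes (median -0.51). On the deposited CPM 4 were higher and 2 lower, where the median over all genes was 0.43.

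Of 20 genes that lectin receptor signalling is known to raise, 12 passed the filter on low values, and 4 of these (Il1b, Cxcl2, Nos2 and Egr3) passed only through libraries with IFN-γ, so that no count is read for the comparisons with IFN-γ. Tnf had 35.3 ± 19.4 rescaled CPM with both cytokines and 733 ± 425 with IFN-γ (-4.21, adjusted p = 5.81e-05), against 10.4 ± 3.71 in untreated cells. Ptgs2, the inducible cyclooxygenase gene, had 33.8 ± 36.5 with both and 326 ± 306 with IFN-γ (-3.20, adjusted p = 0.0115). Nos2, the inducible nitric oxide synthase gene, had 5.14 ± 1.55 with both and 99.4 ± 50.3 with IFN-γ, given without a test. Ccl3, a chemokine gene, gave -3.32 (adjusted p = 0.00138) in that comparison. Without number 3 the adjusted p was 0.388 for Ptgs2 and 0.18 for Ccl3. Clec4e and Clec5a were likewise lower with both cytokines than with IFN-γ alone. With IL-4 alone at 4 h, 1 of the 12 was higher and 2 lower than in untreated cells, beside 12% and 10.1% of all genes.

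Of 20 genes of transcription factors known to act on myeloid receptor genes, 14 rose and 1 fell with IFN-γ at 4 h, beside 21.3% and 17.8% of all genes (median 1.23). With both cytokines 2 were higher and 3 lower than with IFN-γ alone, beside 5.9% and 5.98% (median -0.41). Irf1 rose to 2920.0 ± 946 rescaled CPM with IFN-γ, against 93.4 ± 24.7 in untreated cells (4.92, adjusted p = 9.7e-10), and with both it was at 2425 ± 359 (-0.22 against IFN-γ, adjusted p = 0.768). Irf8 (2.94, adjusted p = 2.37e-07) also rose with IFN-γ. The 2 genes higher with both were Irf4, at 115 ± 45.5 against 3.29 ± 1.63 with IFN-γ (4.75, adjusted p = 3.15e-08), and Cebpa, at 186 ± 20.1 against 26.8 ± 4.55 (2.76, adjusted p = 0.000472). Junb (-1.38, adjusted p = 0.0217) and Rela (-1.06, adjusted p = 0.0198) were lower, and neither was called on the deposited CPM (adjusted p = 0.0768 and 0.0561). Without number 3 the adjusted p was 0.0666 for Cebpa, 0.499 for Junb and 0.397 for Rela. With IL-4 alone at 4 h, 3 factors were higher and 1 lower than in untreated cells, beside 12% and 10.1%.

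Over the 7 group means, the genes most like each receptor gene were found by Pearson's r among 2613 tested genes with a mean of at least 5 CPM and a range of at least 1 on the log2 scale. The group means share libraries and depth, so r is a description. Clec7a was most like Tarm1 (0.96), Cep76 (0.96), Plekhf1 (0.96), Rrs1 (0.96) and Hbegf (0.95). Clec4e was most like Mapre2 (0.97), Optn (0.96), Cxcl16 (0.95), Rpa2 (0.95) and Gnptab (0.95). Clec4d was most like Pcdhgc3 (1.00), Ctla2b (1.00), Hgf (0.99), Lrp1 (0.99) and Sdc1 (0.99), where Pcdhgc3 shares exons and Ctla2b most of its sequence with other genes, so that their counts are uncertain. Clec4n was most like Sept10, Msr1, Sdc1, Nceh1 and Sipa1l2 (0.99 to 0.97), although its group means rest on libraries that differ by replicate number. Clec5a was most like Rpa2 (0.94), Trim13 (0.94), Skil (0.91), L3mbtl3 (0.89) and Prdm1 (0.89). Clec12a was most like Cacna1d (0.99), Kdr (0.99), Plcg2 (0.99), Fhod1 (0.98) and Ifit1bl1 (0.98). Rpa2 stands in the lists of Clec4e and Clec5a, and Sdc1 in those of Clec4d and Clec4n.

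The markers fixed for macrophages were present in all libraries, with a summed level between 16752 and 37336 rescaled CPM for 10 genes. Csf1r, the receptor for the macrophage growth factor, had 4170.3 ± 1047 with both cytokines, 4358 ± 1425 with IFN-γ at 4 h and 4189 ± 1275 in untreated cells, and was not called between these groups. With IFN-γ at 4 h, 1 of the 10 genes rose and 1 fell, beside 21.3% and 17.8% of all genes (median -0.04). Fcgr1, the high-affinity IgG receptor gene, rose (2.38, adjusted p = 8.15e-08). Cd14 had 259, 236 and 252 rescaled CPM in IFN-γ replicates 1 to 3 at 4 h, against 441, 462 and 441 in untreated cells. Markers of other cells were far lower than the macrophage sum. Over the 21 libraries the sums ran from 68.1 to 512 for 5 monocyte genes, from 66.5 to 378 for 9 neutrophil genes, from 2.09 to 6.77 for 6 dendritic cell genes, from 0.33 to 16.9 for 9 T and NK cell genes, from 3.41 to 14.8 for 5 B cell genes, from 0.59 to 9.70 for 5 mast cell and basophil genes, from 6.47 to 17.8 for 5 fibroblast genes and from 0.03 to 0.68 for 4 erythroid genes. Gzma, Pax5, Mcpt4, Hba-a1 and Hbb-bs had no read in any library. Of the T and NK cell genes, Lck had 10.97 ± 3.70 rescaled CPM with IFN-γ at 4 h and 0.359 ± 0.264 in untreated cells, given without a test since it passed the filter only through libraries with IFN-γ. With both cytokines, 0 of the 5 monocyte genes were higher and 1 (Ccr2) lower than with IFN-γ at 4 h. Of all genes, 5.9% were higher and 5.98% lower there. Ccr2 gave -1.68 (adjusted p = 0.026), with 0.0634 on the deposited CPM and 0.416 without number 3. Chil3 of the same list, not called, was higher with both in each replicate number (114, 105 and 35.9, against 78.2, 72.6 and 24.6). Clec4e, Clec5a and Clec12a were also lower in this comparison, and the part of Ccr2 in their levels was not tested.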

How the data were processed

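The deposited table holds CPM of 24421 genes in 21 libraries, made by the authors from reads aligned with TopHat2 2.1.0 to mm10 (GRCm38), with HTSeq and edgeR also named, per the submitters' processing notes. Whether the counting used strand is not given in the sources used here. Whole reads were recovered from the CPM steps (100% of values within 0.01 read of a whole number), so 1 read is worth 0.0125 to 0.0346 CPM.

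CPM were divided by median-ratio factors. limma 3.58.1 (R 4.3.3) was fitted to log2(rescaled CPM + 1) with 1 mean per group over all 7 groups (14 residual degrees of freedom, trended variance), for 11380 genes at 1 CPM or more in at least 3 libraries, with Benjamini-Hochberg adjustment. edgeR 4.0.16 (quasi-likelihood) and DESeq2 1.42.0 were run on the recovered reads as alternatives, and edgeR called 4439 genes for IFN-γ at 4 h against untreated cells, where limma called 4456. The other alternatives were deposited CPM, TMM factors, a pseudocount of 0.1, no filter, the replicate number as a block, and leaving out libraries. Only the limma fit without a block was tested on simulated data, for IFN-γ at 4 h against untreated cells. The simulated libraries held no effect of the replicate number.

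Deviations from the group means correlated with r between 0.54 and 0.95 in 63 pairs of libraries with the same number, so by the data the numbers pair the libraries. In 126 pairs with different numbers r was between -0.86 and 0.37. Deviations cancel out within a group, so these values add no independent evidence of pairing. The labels do not state what a number shares.

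The 6 genes and all gene lists were chosen with earlier results of these data known. Of each list, up to 4 called genes with the largest change and up to 2 uncalled ones with the highest level were eligible to be named in IFN-γ against untreated cells and in the combination against IFN-γ at 4 h (for lectin receptors also IL-4 against untreated cells), besides the 5 genes most like each receptor gene and direct neighbours on the chromosome. Some eligible list members are counted but their values are not reported here. Promoter windows from RefSeq were found for 5 of the 6 genes.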

Additional observations from a re-analysis of the deposited data

Results flagged for a closer look

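A treatment's change against untreated cells differed between 2 h and 4 h in 3 cases, tested in limma as the step between the times (the untreated libraries cancel out of it). With both cytokines the change of Clec4e at 4 h differed from that at 2 h by -1.64 on the log2 scale (adjusted p = 0.0493) and that of Clec5a by -0.66 (adjusted p = 0.0248), each lower at 4 h in 3 of 3 replicate numbers. With IFN-γ alone the change of Clec5a differed by 0.60 (adjusted p = 0.0412), higher in 2 of 3 numbers. Whether the steps differ between the treatments was not tested.

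For Clec5a at 4 h the change with both cytokines differed from the sum of the single-cytokine changes by -1.21, tested as the interaction in limma (adjusted p = 0.0325). The comparisons that enter it share 3 untreated libraries. Groups of 3 libraries are too small for a test of single outlying samples.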

How the results depend on the processing

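Of 1650 recomputed changes of the 6 genes, 82 lost and 51 gained a call, 0 changed sign where either value was called, and 113 changed sign where neither was. Calls out of 90 numbered 22 as reported, 22 with TMM factors, 22 with a pseudocount of 0.1, 19 without the filter, 23 in edgeR and 26 in DESeq2, and 16 to 27 without any single library. Of all 11380 genes, edgeR called 33 (interaction at 2 h) to 4891 (combination against untreated cells at 4 h), and DESeq2 102 to 5169. For the other fits no share of all genes is given, so their totals are not read as results about the 6 genes. Without all libraries of number 1, 2 or 3 they numbered 16, 26 and 4.

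In the fit blocked on the replicate number (paired libraries) 43 were called, with the share of all genes called in brackets. Against untreated cells there were 3 for IL-4 at 2 h instead of 1 (25.5%), 5 at 4 h instead of 4 (47.5%), 1 for IFN-γ at 2 h instead of 0 (38.1%), 4 at 4 h instead of 2 (63.3%), 2 for both at 2 h instead of 1 (43.4%) and 5 at 4 h instead of 4 (66.7%). For the combination there were 5 against IFN-γ at 4 h instead of 4 (32.6%), and 1 at 2 h (33.2%) and 2 at 4 h (56%) against IL-4. Between 2 h and 4 h there were 3 for IL-4 (19.8%), 3 for IFN-γ (45.2%) and 5 for both (46.9%), and for the interaction at 4 h there were 3 (14.8%). The block ended no call.

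On the deposited CPM, 2 genes were called for IL-4 at 2 h, 1 for IFN-γ at 4 h, and 0 for the combination against IL-4 at 4 h and for IFN-γ between 2 h and 4 h. On the deposited CPM with the block, a setting chosen after seeing the data, the counts were 2 for IL-4, 2 for IFN-γ and 2 for both at 2 h, 1 for the combination against IL-4 at 2 h, 2, 2 and 4 between 2 h and 4 h for IL-4, IFN-γ and both, and 2 for the interaction at 4 h. TMM factors gave 0 for IFN-γ between 2 h and 4 h. Without the filter there were 1 for IFN-γ at 4 h, 0 for IFN-γ between the times and 1 for both between the times. DESeq2 gave 1 for the combination against IL-4 at 2 h, 1 for IL-4 between the times and 2 for IFN-γ between them. With untreated replicate 1 as the lone control there were 0 for IL-4 at 2 h and 0 for the interaction at 4 h. The causes were not tested.

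Leaving out libraries or a whole replicate number, the counts ran from 0 to 1 (IL-4 at 2 h), 1 to 4 (IL-4 at 4 h), 0 to 2 (IFN-γ at 4 h) and 2 to 5 (both at 4 h). Against IFN-γ they ran from 0 to 1 at 2 h and 0 to 5 at 4 h, and against IL-4 from 0 to 1 at 4 h. Between the times they ran from 0 to 2 for each treatment, and for the interaction at 4 h from 0 to 1. With 3 libraries a group, and 2 where a number is left out, changes near the threshold are not settled. A planned search of the receptor proteins for signalling motifs was not run.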
